A study of Mus musculus with 59 samples.

Results

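Hippocampal transcripts of APOE4 females were compared to those of APOE3 counterparts at 9 months of age, while both genotypes were still cycling regularly (9M-Reg). The members are the 12 of 59 libraries in the series whose labels give this age and cycling status, 7 from hAPOE3/hAPOE3 mice and 5 from hAPOE4/hAPOE4 mice. Both genotypes are targeted replacements, in which a human allele stands in place of mouse Apoe, so neither group had the mouse gene intact and there is no wild-type group. By the methods, APOE4 mice were obtained as homozygotes while APOE3 mice were obtained as heterozygotes and bred to homozygosity, so genotype and line of origin cannot be told apart. All mice were fasted overnight before tissue was taken, and cycling status came from daily vaginal cytology. The labels name no animal, litter or extraction batch, so the p-values measure the spread between these samples. The other 47 libraries (6M-Reg, 9M-Irreg, 15M-Irreg and 15M-Acyc females of both genotypes, that is regular, irregular or acyclic at 6, 9 or 15 months) entered the fit to estimate the spread and to compare the genotype effect between stages. The comparison addresses whether APOE genotype was already accompanied by transcript differences before cycles became irregular.

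Apolipoprotein E carries lipid between cells and is made in brain mainly by astrocytes and by activated microglia. Its APOE4 form is the strongest common genetic risk factor for late-onset Alzheimer's disease, and it has been linked to cholesterol handling in oligodendrocytes, the cells that form myelin, and to the state of microglia. The hippocampus holds granule neurons of the dentate gyrus and pyramidal neurons of CA1 and CA3, with white matter at its borders and choroid plexus and meninges beside it.

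Total estimated counts were 23575349 to 31430865 in APOE3 (median 25670284) and 18365444 to 27117434 in APOE4 (median 24562233), with p = 0.128 for the difference in a two-sided exact permutation test over 792 divisions. Library 38, of APOE4, was the least deep and stood apart on the second principal component (12% of the variance). Markers of hippocampal neurons were present in every library, with sums over the CA1 markers of 508 to 627 CPM (counts scaled to a common depth with TMM factors). Xist was at 562 to 681 CPM in all 12 libraries, and the tested Y-linked genes summed to at most 1.92 CPM.

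Of 18584 genes tested with edgeR's quasi-likelihood test, 2 had an adjusted p under 0.05 (0.0108%), Ndn lower and H2ac20 higher in APOE4. An unadjusted p under 0.05 was found for 998 genes (5.37%), 613 of them higher (3.3% of genes tested) and 385 lower (2.07%). That split moved with the setting, with 582 higher of 890 with offsets for GC content and length, 471 higher of 946 with RLE factors, 461 of 927 with DESeq2, 531 of 1268 with no filter, 335 of 750 with 10 counts required in every library and 517 of 1150 in a fit of only the 12 libraries. With 1 library left out the number of genes under that p ran from 742 (360 higher, without library 10) to 1324 (742 higher, without library 7). The higher ones were 428 of 914 without library 9, and 405 of 756, 401 of 767 and 403 of 813 without libraries 8, 36 and 40. The 3.3% and 2.07% used below as background therefore belong to this fit. Every APOE4 library lay above every APOE3 library for 34 genes (0.183%) and below for 27 (0.145%).

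H2ac20 belongs to a group of near-identical H2A copies, and their sequences are shown first because they limit how short reads can be assigned. H2A is a core histone of the nucleosome. On GRCm38, H2ac20 (Hist2h2ac) lies at chr3:96220361-96220880 on the minus strand, H2ac19 (Hist2h2aa2) at chr3:96239749-96240276 on the minus strand and H2ac18 (Hist2h2aa1) at chr3:96245497-96246082 on the plus strand. In the GENCODE M21 transcripts the H2ac18 and H2ac19 coding sequences were 100% identical, and that of H2ac20 matched them at 94.6% of 387 positions compared without gaps. Coding bases 328 to 387 hold 13 of the 21 differing positions, written in capitals, 5′ to 3′ on the coding strand:
H2ac18: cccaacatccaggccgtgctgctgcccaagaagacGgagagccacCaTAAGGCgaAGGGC
H2ac19: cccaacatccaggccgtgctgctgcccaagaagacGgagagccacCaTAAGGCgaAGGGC
H2ac20: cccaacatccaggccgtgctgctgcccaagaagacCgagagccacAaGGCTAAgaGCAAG
Of all stretches of 31 bases, 100% in the H2ac19 transcript, 89.6% in H2ac18 and 43.3% in H2ac20 occurred in another of the 3 transcripts. The values of H2ac18 and H2ac19 are uncertain one by one for that reason. Reads from the shared part of H2ac20 are open to the same uncertainty.

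H2ac20 was close to absent in the estimated counts of APOE3 and present at a low level in those of APOE4. The 7 APOE3 libraries held 1, 3, 0, 0, 0, 2 and 1 counts, and the 5 APOE4 libraries held 60, 58, 14, 47 and 48. Every APOE4 library was above every APOE3 library, and the lowest of them was library 38. The group totals of 227 and 7 counts gave a ratio of 52.3 per effective library size (95% exact interval 25 to 131, counting error only), and edgeR's adjusted p was 0.00173. Leaving out any 1 library kept the adjusted p between 0.0017 and 0.0113. In CPM the APOE4 libraries were at 0.769 to 2.33.

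The sister copies did not follow it. H2ac19 was at 7.26 to 14.2 CPM in APOE3 (median 12) and at 7.71, 4.80, 8.35, 6.57 and 2.99 CPM in APOE4, and 1 APOE3 library lay inside the APOE4 range. Its log2 fold change was -0.97 (SE 0.26, unadjusted p = 5.4e-04, adjusted p = 0.692). H2ac18 was at 4.42 to 9.37 CPM in APOE3 and 3.22 to 7.77 CPM in APOE4, with a log2 fold change of -0.49 (SE 0.24, unadjusted p = 0.0433). Hist1h2ap, an H2A gene on chromosome 13 whose coding sequence is 91.5% identical to that of H2ac19, was at 0.87 (SE 0.22, unadjusted p = 1.99e-04, adjusted p = 0.463). None of these 3 passed the adjusted threshold at 9M-Reg. At 6M-Reg, 9M-Irreg and 15M-Irreg the log2 fold change of H2ac19 was -0.32, -0.42 and -0.34. At 15M-Acyc it was -1.35 (edgeR unadjusted p = 4.24e-05, adjusted p = 0.131). H2ac18 was at 0.22, 0.21, -0.23 and 0.62 in the same order of stages. Transcripts of replication-dependent histones mostly lack a poly(A) tail, and poly(A) RNA was sequenced.

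Ndn encodes necdin, a MAGE family protein abundant in postmitotic neurons, and is imprinted, with expression from the paternal allele. It lies at chr7:62346569-62350262 on the plus strand of GRCm38. The APOE3 libraries ranged from 197.8 to 231 CPM (median 215), and the APOE4 libraries were at 108, 123, 87.3, 131 and 122 CPM. The groups were far from overlapping. The log2 fold change was -0.91 (SE 0.13, adjusted p = 1.22e-04 with edgeR), and it stayed between -0.97 and -0.83 with any 1 library left out. Of the neighbouring genes of the imprinted cluster, which were looked at after the value of Ndn was seen, Mkrn3 was at -0.48 (SE 0.18, unadjusted p = 0.0103, adjusted p = 0.878) and Magel2 at 0.01 (SE 0.29).

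**Figure D1:**
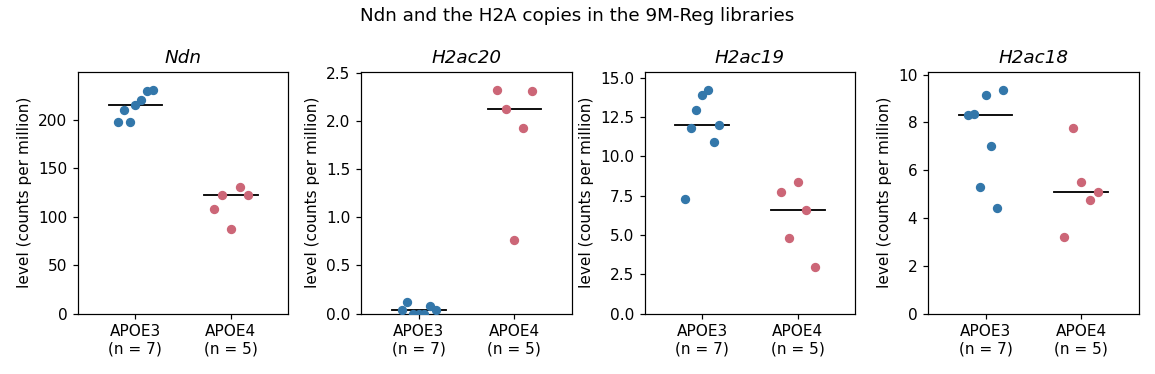
Level in CPM (linear axes from 0) of Ndn and 3 H2A genes in each 9M-Reg library, APOE3 in blue (n = 7) and APOE4 in red (n = 5); each point is 1 library, the bar is the median and sideways position has no meaning. The APOE4 points of Ndn lie at 87.3 to 131 and the APOE3 points at 197.8 to 231, while for H2ac20 the APOE4 points at 0.769 to 2.33 lie above all APOE3 points.

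Both genes also differed between genotypes at other stages. For Ndn 6M-Reg females had a log2 fold change of -0.87 (edgeR adjusted p = 1.49e-04) and 9M-Irreg females one of -0.77 (adjusted p = 0.00275). The 15M-Irreg and 15M-Acyc values were -0.65 and -0.77 (adjusted p = 0.0105 and 0.0316). The highest Ndn level in any of the 30 APOE4 libraries was 132 CPM. Of the 29 APOE3 libraries, 4 lay at or under it (the highest at 130 CPM), none at 9M-Reg, and the others were at 183 CPM or higher. All 29 APOE3 libraries held 3 or fewer counts of H2ac20. Among the 30 APOE4 libraries, 5 did so too (3 of 6M-Reg, 1 of 9M-Irreg, 1 of 15M-Irreg) and the others held 10 to 77. For H2ac20 the adjusted p was under 0.05 in 6M-Reg (0.00399) and 15M-Irreg (0.00358) but not in 9M-Irreg (0.0638) or 15M-Acyc (0.164). The effect at 9M-Reg minus the mean of the other 4 stages was -0.14 for Ndn (SE 0.15, unadjusted p = 0.332) and -0.31 for H2ac20 (SE 0.57, unadjusted p = 0.586).

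**Figure D2:**
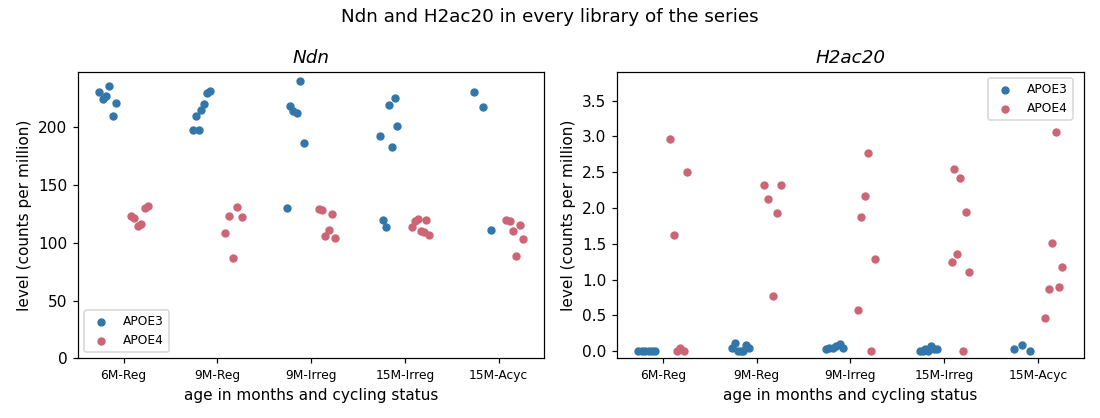
Level in CPM (linear axes) of Ndn and H2ac20 in every library of the series by age in months and cycling status, APOE3 in blue and APOE4 in red; each point is 1 library and sideways position within a group has no meaning. The genotypes separate at 9M-Reg in both panels, 4 APOE3 libraries of later stages lie in the APOE4 range of Ndn, and 5 APOE4 libraries of other stages lie at 3 or fewer counts of H2ac20.

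The remaining genes among the 10 smallest p-values in each direction had adjusted p of 0.24 or more. Tex11, an X-linked gene of meiosis, held 10, 6, 9, 19, 14, 9 and 6 counts in APOE3 and 3, 3, 2, 2 and 4 in APOE4, a ratio of totals of 0.309 (95% exact interval 0.161 to 0.552, counting error only). Nlrp5-ps, a pseudogene whose reads may be shared with related copies, was at 0.569 to 1.01 CPM in APOE3 and 0.233 to 0.49 CPM in APOE4 (log2 fold change -1.04, SE 0.24, adjusted p = 0.269). Pofut1, which attaches fucose to Notch receptors, was at 25.9 to 29 CPM and 21.3 to 25 CPM (-0.20, SE 0.05, adjusted p = 0.463). The groups did not overlap for these 3, nor for the non-coding AC102496.1 (-0.39, SE 0.09) and the pseudogene Gm46223 (-0.28, SE 0.07). They overlapped for Acbd4, an acyl-CoA binding protein (-0.18, SE 0.05), Adcy6, an adenylate cyclase, and Fbxo17, an F-box protein (-0.59, SE 0.16).

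On the higher side, Snx24, a sorting nexin, was at 11.1 to 13.3 CPM in APOE3 and 13.7 to 14.9 CPM in APOE4 (log2 fold change 0.24, SE 0.06, adjusted p = 0.632), and Gtf2b, the general transcription factor TFIIB, at 23.5 to 25.4 and 25.5 to 28.1 CPM (adjusted p = 0.763), both without overlap. Rab31, a small GTPase of vesicle traffic, was at 64.1 to 74.85 CPM in APOE3 and 71.9 to 81.0 CPM in APOE4 (0.20, SE 0.05, adjusted p = 0.578). Pip4k2a, a phosphoinositide kinase (0.22, SE 0.06), Wdr47 (0.14, SE 0.04), Cap2, a regulator of actin (0.16, SE 0.05), and Pla2g7, which breaks down platelet-activating factor (0.18, SE 0.05), overlapped between groups. ENSMUSG00000094437 held 0 counts in all 7 APOE3 libraries and 18, 10, 3, 0 and 0 in APOE4.

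Gene lists are described by how many members lay on each side of 0. Over all genes tested, 52.8% had a log2 fold change above 0 and 47.2% below, with a median of 0.0064. Members of a list vary together within a library, so these counts are not a test. Of 40 list medians, 13 turned sign with some 1 library left out. In whole tissue fewer cells of a type and less RNA per cell cannot be told apart.

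Myelin genes lay mostly on the higher side in APOE4. Of 24, 21 were above 0 with a median of 0.14, and 5 (20.8%, against 3.3% of all genes) were higher with an unadjusted p under 0.05. Mbp, myelin basic protein, was at 2179 to 2508 CPM in APOE3 (median 2306) and at 2766, 2358, 3015, 2721 and 2392 CPM in APOE4 (0.19, SE 0.08, unadjusted p = 0.0166), with 3 APOE4 libraries above the APOE3 range. Ermn, a cytoskeletal protein of mature oligodendrocytes (0.30, SE 0.11), Mal, a myelin proteolipid (0.21, SE 0.08), and Cldn11, the tight junction protein of myelin (unadjusted p = 0.0497), were also among them. Cnp, an enzyme of the myelin sheath, was at 0.12 (SE 0.08, unadjusted p = 0.143). The members below 0 were Gsn (-0.12), Cd9 (-0.04) and Enpp2 (-0.71, SE 0.83), the last of which is also abundant in choroid plexus. The sum over the list overlapped between groups. It was 6472 to 8603 CPM in APOE3 (median 8054) and 6513 to 9502 CPM in APOE4 (median 7931).

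All 12 oligodendrocyte markers, of which several are also in the myelin list, were above 0 with a median of 0.17. Their sum was 4920 to 5386 CPM in APOE3 and 6280, 5539, 6895, 6101 and 5361 CPM in APOE4, so 4 of 5 APOE4 libraries were above the APOE3 range. APOE3 library 13 was the lowest of the 12 for 13 of 24 myelin genes and 10 of 12 oligodendrocyte markers. Leaving library 13 out gave medians of 0.11 for myelin and 0.15 for oligodendrocyte markers. Library 38 was the highest of the 12 for 20 of 24 myelin genes and 11 of 12 oligodendrocyte markers. Without it, 18 myelin genes were above 0 and 2 were higher with an unadjusted p under 0.05, against 474 of all 18582 genes. The medians were then 0.058 for myelin and 0.098 for oligodendrocyte markers. The markers of oligodendrocyte precursors had a median of 0.047 (9 of 12 above 0), which was 0.0062 without library 38, with their receptor Pdgfra at -0.11 (SE 0.07). At 9M-Reg 4 oligodendrocyte markers (33.3%, against 3.3% of all genes) were higher with an unadjusted p under 0.05. These markers had 11 of 12 above 0 at 6M-Reg (median 0.045) and 12 of 12 at 9M-Irreg (0.12). They had 7 of 12 above 0 at 15M-Irreg (0.0092) and 10 of 12 at 15M-Acyc (0.086). At the other stages the myelin median was 0.045 (6M-Reg), 0.044 (9M-Irreg), 0.025 (15M-Irreg) and 0.074 (15M-Acyc), and 0 of 24 myelin genes had an unadjusted p under 0.05 for a higher log2 fold change at 9M-Reg than at 6M-Reg (3% of all genes) or 9M-Irreg (1.61%). Against the mean of the other 4 stages there was 1 (1.83% of all genes), Mbp, with a difference of 0.19 (SE 0.09, unadjusted p = 0.032, adjusted p = 0.997).

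**Figure D3:**
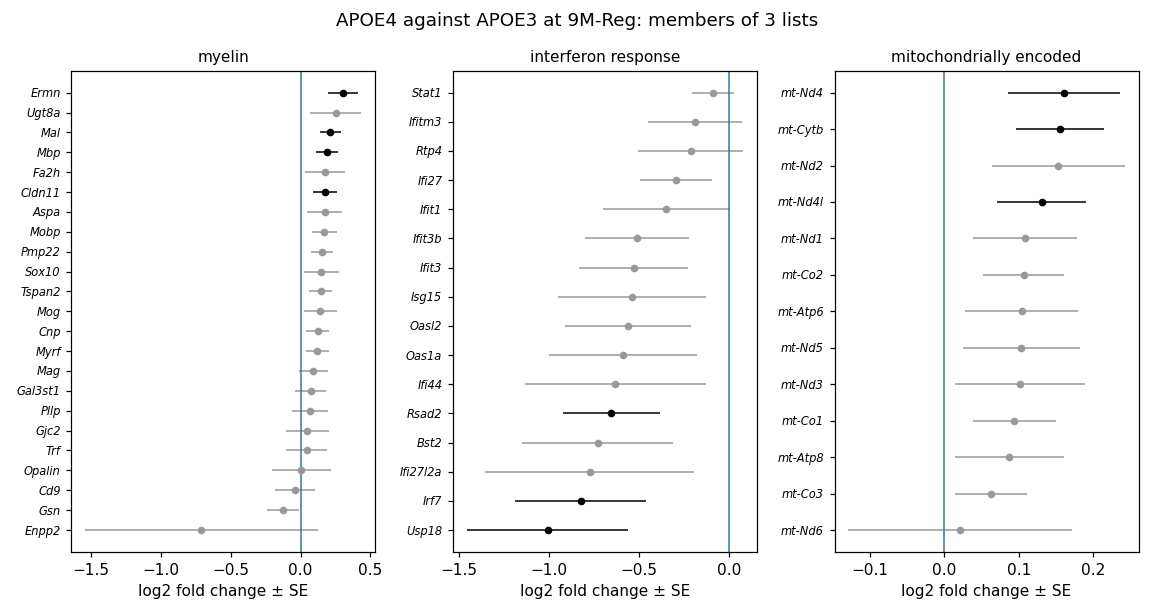
Log2 fold change (APOE4 against APOE3 at 9M-Reg, with its standard error as the bar) of members of the myelin, interferon response and mitochondrially encoded lists, ordered by value; black points have an unadjusted p under 0.05, the blue line is 0, and the panels have different horizontal scales. Of those drawn, 20 of 23 myelin genes lie right of 0, 16 of 16 interferon genes left of it and 13 of 13 mitochondrial genes right of it.

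Interferon-response genes lay on the lower side in APOE4. All 16 were below 0 with a median of -0.55, and 3 (18.8%, against 2.07% of all genes) had an unadjusted p under 0.05. Irf7, the transcription factor that amplifies type I interferon, was at 0.844 to 3.96 CPM in APOE3 (median 1.84) and at 1.40, 0.953, 0.989, 0.822 and 1.78 CPM in APOE4 (log2 fold change -0.82, SE 0.36, unadjusted p = 0.027, adjusted p = 0.882). Rsad2, the antiviral enzyme viperin, was at -0.65 (SE 0.27) and Usp18, which removes ISG15 from proteins, at -1.01 (SE 0.45). Cxcl10, an interferon-induced chemokine from the cytokine list, was at 0.252 to 1.6 CPM in APOE3 and 0.0964 to 0.288 CPM in APOE4 (-1.77, SE 0.59, unadjusted p = 0.00441, adjusted p = 0.878). The groups overlapped for each of these 4, and the high values were in part of the APOE3 libraries.

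The interferon list summed to 80.4, 94.4, 114.5, 149, 130, 79.2 and 94.0 CPM in APOE3 and to 83.5, 89.1, 82.5, 88.8 and 82.3 CPM in APOE4. APOE3 libraries 9, 10 and 11 were the highest, and 2 APOE3 libraries were below all of APOE4. Library 10 was the highest of the 12 for 14 of 16 members, and without it the median was -0.33. In that fit 1 member was under an unadjusted p of 0.05, against 742 of all 18573 genes (360 of them higher). The choroid plexus markers summed to 4693, 5541 and 4917 CPM in libraries 9, 10 and 11, the 3 highest values of the 12. Libraries 37, 13 and 8 had choroid plexus sums of 4477, 4312 and 4249 CPM, but interferon sums of 89.1, 94.0 and 94.4 CPM. With the choroid plexus sum as a covariate, an alternative added after seeing the data, 15 members were below 0 with a median of -0.38. There 1 member reached an unadjusted p under 0.05, against 979 of all 18584 genes (521 of them higher). In the other stages the interferon median was -0.055 (6M-Reg), -0.0092 (9M-Irreg), 0.21 (15M-Irreg) and -0.66 (15M-Acyc).

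Antigen presentation genes had 11 of 12 members below 0 and a median of -0.33. Tap1, of the peptide transporter that supplies class I molecules, was at 4.11 to 7.10 CPM in APOE3 and 3.33 to 4.07 CPM in APOE4, without overlap (log2 fold change -0.44, SE 0.19, unadjusted p = 0.0285, adjusted p = 0.882). B2m, the light chain of class I, was at 0.05 (SE 0.13), and the class II genes H2-Ab1, H2-Aa and Cd74 were at -0.74, -0.61 and -0.52 with SE of 0.62, 0.68 and 0.61. With the choroid plexus sum as a covariate the list median was -0.075.

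Microglial markers lay on the other side, with 14 of 17 above 0 and a median of 0.066, or 0.031 without library 40. Selplg was at 0.23 (SE 0.10) and Itgam, the integrin CD11b, at 0.22 (SE 0.10), both with an unadjusted p under 0.05. Aif1, which encodes IBA1, was at 3.03 to 3.86 CPM in APOE3 and 2.89 to 4.58 CPM in APOE4 (0.07, SE 0.14). At 6M-Reg 15 of the 17 were below 0 (median -0.11), while 16 were above 0 at 9M-Irreg (median 0.080), 16 at 15M-Irreg (0.093) and 11 at 15M-Acyc (0.082). For a difference of the effect from that at 6M-Reg, with 9M-Reg the higher, 6 of 17 had an unadjusted p under 0.05, against 3% of all genes. Against 9M-Irreg there were 0 of 17 (1.61% of all genes) and against the mean of the other 4 stages 1 of 17 (1.83%). Genes of activated microglia were divided (8 of 17 above 0, median -0.020, or -0.12 without library 37), as were cytokine genes (6 of 17, median -0.064, or -0.021 without library 37), of which Il33, an alarmin, was at 0.22 (SE 0.10, unadjusted p = 0.0369). Of 12 astrocyte markers 8 were above 0 (median 0.028, or 0.0084 without library 10), with Slc4a4, a bicarbonate transporter, at 0.17 (SE 0.06, unadjusted p = 0.0108) and Gfap at -0.01 (SE 0.07).

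All 13 mitochondrially encoded transcripts were above 0, with a median of 0.10. Cytochrome b (mt-Cytb) was at 4798 to 5586 CPM in APOE3 (median 5237) and at 5291, 5517, 6962, 5096 and 6063 CPM in APOE4 (log2 fold change 0.16, SE 0.06, unadjusted p = 0.0109), and the complex I subunits mt-Nd4 (0.16) and mt-Nd4l (0.13) also had an unadjusted p under 0.05, 3 of 13 in all (23.1%, against 3.3% of all genes). Library 38 was the highest for 12 of 13, and without it 11 were above 0 with a median of 0.031. With the offsets for GC content and length 12 were above 0 with a median of 0.057. At the other stages 1 of 13 was above 0 at 6M-Reg (median -0.030) and 12 at 9M-Irreg (0.042). The list had 1 of 13 above 0 at 15M-Irreg (-0.058) and 13 at 15M-Acyc (0.11). Nuclear genes of the same complexes lay near the median of all genes. Complex I had 24 of 36 above 0 (median 0.019, or -0.0045 without library 39) and complexes III to V 19 of 33 (median 0.0083, or -0.010 without library 39). Ndufs4, a complex I subunit, was at 40.6 to 47.1 CPM in APOE3 and 45.3 to 51.9 CPM in APOE4 (0.12, SE 0.04, unadjusted p = 0.00512).

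The lists of glycolysis, the TCA cycle, AMPK and estrogen receptor signalling had medians within 0.05 of 0. Glycolysis had 15 of 20 above 0 (median 0.017, or -0.014 without library 39) and the TCA cycle 16 of 22 (median 0.026, or 0.0060 without library 39), with Idh2, the mitochondrial isocitrate dehydrogenase, at -0.14 (unadjusted p = 0.0439). In the AMPK and PGC-1alpha list 13 of 20 were above 0 (median 0.042, or 0.013 without library 36), and Prkab1, an AMPK subunit, was at -0.17 (SE 0.08, unadjusted p = 0.0421). Ppargc1a, the coactivator of mitochondrial biogenesis, was at 40.9 to 45.2 CPM in APOE3 and 43.95 to 47.2 CPM in APOE4 (0.05, SE 0.05), Nrf1 at 0.05 (SE 0.07) and Tfam at 0.04 (SE 0.05). Estrogen receptors and their cofactors had 8 of 19 above 0 (median -0.011, or 0.0046 without library 13), with the coactivator Ncoa1 at 0.11 (SE 0.04, unadjusted p = 0.0189), Esr1 at -0.03 (SE 0.16) and Esr2 at -0.58 (SE 0.38).

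Lipid genes differed little. Cholesterol synthesis had 16 of 22 above 0 (median 0.038), none with an unadjusted p under 0.05. Library 37 was the highest of the 12 for 11 of these 22, and without it the median was -0.020. Lipoprotein transport had 10 of 23 above 0 (median -0.0032, or 0.011 without library 37), with Lrp1, a receptor of apolipoprotein E, at 513.5 to 559 CPM in APOE3 and 477 to 521 CPM in APOE4 (-0.09, SE 0.04, unadjusted p = 0.0282). The mouse Apoe row held 41 to 151 counts in APOE3 and 48 to 100 in APOE4 (-0.30, SE 0.20). These values check the replacement of the mouse gene and are no measure of the human alleles.

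Of 16 tested neighbours of Apoe on chromosome 7, 11 were below 0. Apoc1, an apolipoprotein gene 6.6 kb from Apoe, was at 0.789 to 1.46 CPM in APOE3 (median 1.09) and at 0.271, 0.696, 0.330, 1.07 and 0.482 CPM in APOE4. Only library 39 lay inside the APOE3 range. Its log2 fold change was -0.97 (SE 0.27, unadjusted p = 7.72e-04, adjusted p = 0.748), and -1.33 to -0.79 with any 1 library left out. In the other stages it was 0.13 (6M-Reg, SE 0.25), -0.35 (9M-Irreg, SE 0.25), -0.09 (15M-Irreg, SE 0.24) and -0.66 (15M-Acyc, SE 0.31, unadjusted p = 0.0401). Trappc6a, a subunit of a vesicle tethering complex (-0.24, SE 0.11), and Clasrp, a splicing-related protein (-0.11, SE 0.05), also had an unadjusted p under 0.05. Over 52 tested genes within 1 Mb, a window added after seeing the data, 38 were below 0 (median -0.056), and the median was -0.00762 with offsets for GC content and length.

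Tissue beside the hippocampus varied widely within both groups. The choroid plexus markers summed to 86.9 to 5541 CPM in APOE3 (median 4312) and to 53.2, 4477, 3359, 1570 and 302 CPM in APOE4. All 12 were below 0 (median -0.88, or -1.47 without library 37, -1.12 without library 38 and -0.56 without library 36), 0 of them with an unadjusted p under 0.05. Ttr, the transthyretin of the choroid plexus, was at -0.86 (SE 1.35). Libraries 36, 12 and 40 had the lowest sums and also the lowest scores on the first principal component (25.5% of the variance). All 12 meningeal and fibroblast markers were below 0 as well (median -0.49, or -0.25 with the choroid plexus covariate), with sums of 128 to 376 CPM in APOE3 and 111 to 279.5 CPM in APOE4. The same side held 9 of 10 endothelial markers (median -0.13, or -0.0745 without library 36), 7 of 8 mural markers (median -0.18) and 7 of 8 ependymal markers (median -0.20). The ependymal median was -0.44 without library 37, -0.12 without library 40 and -0.020 with the choroid plexus covariate. Myh11, the smooth muscle myosin, was at 8.11 to 10.3 CPM in APOE3 and 4.50 to 8.29 CPM in APOE4 (-0.46, SE 0.19, unadjusted p = 0.0205).

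Pituitary transcripts came from 2 APOE3 libraries. The pituitary markers summed to 172 CPM in library 13 and 38.6 CPM in library 9, against 1.99 to 3.34 CPM in the other APOE3 libraries and 1.2 to 4.97 CPM in APOE4. Prl, prolactin, held 3138 and 670 counts in those libraries and 15 to 34 in the other APOE3 libraries. Without library 13 the list median went from -2.32 to -0.71.

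**Figure D4:**
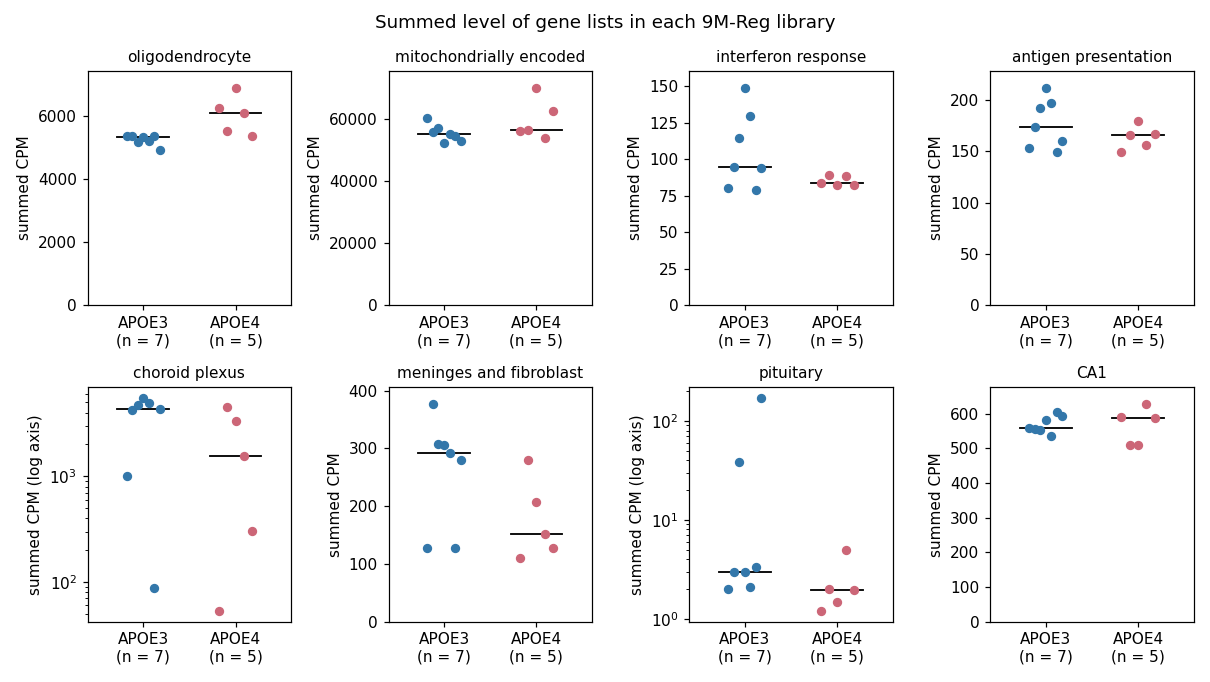
Summed CPM of 8 gene lists in each 9M-Reg library, APOE3 in blue (n = 7) and APOE4 in red (n = 5), with the median as a bar; axes are linear from 0 except for the log axes of choroid plexus and pituitary, and sideways position has no meaning. The oligodendrocyte sum of 4 of 5 APOE4 libraries is above the APOE3 range, 3 of 7 APOE3 libraries are high in the interferon sum, and the choroid plexus sum spans 53.2 to 5541 CPM.

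Markers of the principal neurons had medians of 0.019 for dentate gyrus (4 of 7 above 0), -0.026 for CA1 (2 of 5) and 0.036 for CA3 (3 of 6), each of which turned sign with some 1 library left out. Interneuron markers had 9 of 11 above 0 with a median of 0.076, and synapse genes 14 of 20 with a median of 0.035, or 0.00875 without library 9. Snap25, a SNARE protein of the presynapse, was at 1466 to 1822 CPM in APOE3 (median 1618) and at 1850, 1752, 1989, 1831 and 1918 CPM in APOE4. The groups overlapped, with a log2 fold change of 0.18 (SE 0.06, unadjusted p = 0.00281, adjusted p = 0.878). Snap25 was the 1 synapse gene of 20 (5%, against 3.3% of all genes) that was higher with an unadjusted p under 0.05. Pvalb, of fast-spiking interneurons, was at 30.2 to 34.8 CPM in APOE3 and at 35.2, 32.1, 52.2, 36.8 and 33.5 CPM in APOE4 (0.23, SE 0.09, unadjusted p = 0.0122), and its high value was that of library 38. Markers of thalamus, striatum and neocortex had medians of 0.10, -0.015 and 0.034, with 0 under an unadjusted p of 0.05. Library 38 was the highest for 5 of 10 thalamus and 5 of 9 neocortex markers, and without it the 3 medians were 0.020, -0.099 and 0.0066. Without library 39 those of striatum and neocortex were 0.057 and -0.017.

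**Figure D5:**
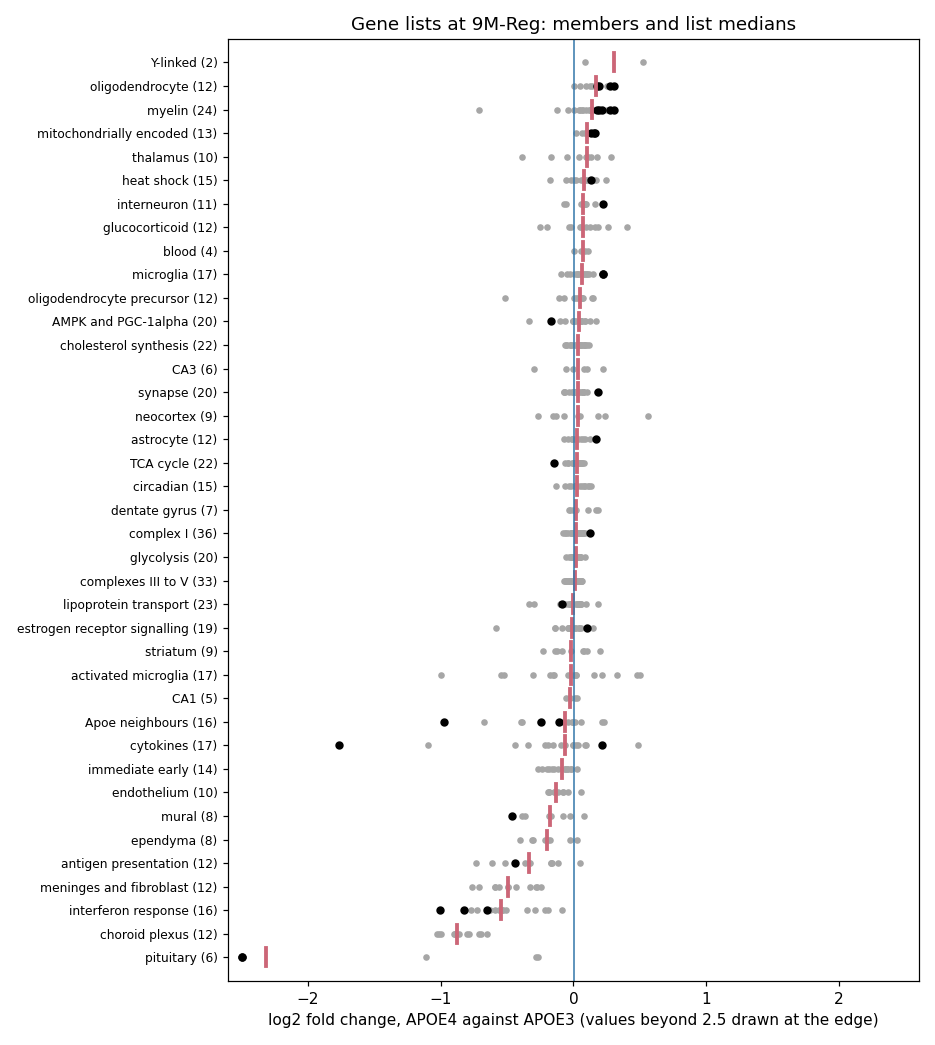
Log2 fold change (APOE4 against APOE3 at 9M-Reg) of each tested member (points; black for an unadjusted p under 0.05) and the median (red bar) of 39 gene lists, with the number of tested members in brackets; the blue line is the median of all genes and values beyond the axis limit are drawn at its edge. Most medians lie near the blue line, with oligodendrocyte (0.17) and myelin (0.14) to its right and pituitary (-2.32), choroid plexus (-0.88) and interferon response (-0.55) to its left.

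The genotype effect at 9M-Reg was last tested against other stages across all genes. With edgeR, 0 of 18584 genes had an adjusted p under 0.05 against 6M-Reg, against 9M-Irreg or against the mean of the other 4 stages, and an unadjusted p under 0.05 was found for 1025 (5.52%), 513 (2.76%) and 634 (3.41%). DESeq2 called 1 gene against 6M-Reg, Fam205a4, with counts of 0 to 141, and 0 in the other comparisons. Slc2a5, a fructose transporter of microglia, was at 2.69 to 3.41 CPM in APOE3 and 3.02 to 4.57 CPM in APOE4 at 9M-Reg. Its log2 fold change was 0.33 at 9M-Reg and -0.34 at 6M-Reg, a difference of 0.67 (SE 0.18, unadjusted p = 3.85e-04, adjusted p = 0.838). Prickle4, at 0 to 0.417 CPM in APOE3 and 0.110 to 1.16 CPM in APOE4, had a log2 fold change of 1.64 at 9M-Reg and -1.82 at 9M-Irreg, a difference of 3.46 (SE 0.85, unadjusted p = 1.66e-04).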

How the data were processed

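Poly(A) RNA of hippocampus was sequenced from stranded libraries. The authors estimated transcript reads with Salmon 0.15.0 against Ensembl mouse cDNA (GRCm38) and deposited expected counts per gene, rounded to whole numbers, for 59 libraries. They also deposited normalized values (unit signal, counts divided by DESeq2 factors), used in 1 alternative, and TPM per transcript, from which no level is quoted. Transcript reads summed per gene matched the deposited gene table within 1 read for 99.6% of paired genes. Columns of other samples numbered 0.

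Genes that reached 10 counts in 3 or more libraries (18584 of 24439) were fitted with edgeR 4.0.16 (R 4.3.3) by the quasi-likelihood test, with TMM factors and 10 groups, and p-values were adjusted by Benjamini-Hochberg over all of them. The contrast was APOE4 9M-Reg minus APOE3 9M-Reg, two-sided. Stage differences were contrasts of the same model. Alternatives used RLE factors, DESeq2 1.42.0, limma 3.58.1 on log2 of the normalized values with a pseudocount of 1, other filters, only the 12 libraries, and each library left out. A choroid plexus covariate and GC and length offsets were chosen after seeing the data. On simulated counts for this contrast (18409 genes), 85% of changes of 0.5 and 99% of changes of 1 on the log2 scale were recovered, with 9 false calls. Each size was planted in 100 genes, none at levels as low as those of H2ac20, Apoc1, Irf7 or Tex11. Genes were drawn independently, so members of a list did not vary together within a library. With that many planted changes the adjusted threshold is easier to reach, so these rates are not the power of the real contrast. No pair of libraries within a group agreed within sampling noise (31 pairs, smallest chi-square per degree of freedom 4.52).

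The members and gene lists were chosen with earlier results of these data known. Named genes were those with an adjusted p under 0.05, the 10 smallest p-values in each direction, up to 4 members of each list by p with its leading member, genes the study names, mouse Apoe, and the 5 smallest p-values of each stage contrast. Them5 and Tshb, at 0 to 4 counts, were not tested. Some genes count in their lists but are not reported here one by one.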

Additional observations from a re-analysis of the deposited data

Results flagged for a closer look

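Of 134 groups of values examined for a single library far from the rest, 7 stood out, and chance alone gives about 1 in 20. H2ac20 was lowest in APOE4 library 38, at 0.769 CPM against 1.93 to 2.33 CPM in the others. Rab31 was highest in APOE3 library 9, at 74.85 CPM against 64.1 to 68.55 CPM. Cap2 was highest in APOE4 library 38, at 234.9 CPM against 212 to 218 CPM. The oligodendrocyte sum was lowest in APOE3 library 13, at 4920 CPM against 5195 to 5386 CPM. The ependymal sum was highest in APOE4 library 37, at 68.47 CPM against 38.9 to 45.3 CPM. The pituitary sum was highest in APOE3 library 13, at 171.7 CPM against 1.99 to 38.6 CPM, and in APOE4 library 39, at 4.971 CPM against 1.2 to 2.02 CPM.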

How the results depend on the processing

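Ndn and H2ac20 were the 2 genes called under most alternatives and with each library left out. The exceptions were 10 counts in every library, which left 1 call (Ndn, H2ac20 not being tested), and DESeq2, which called 3, the third with 0 to 3 counts. The stage difference from 6M-Reg gave 1 call with DESeq2. Genes with an unadjusted p under 0.05 numbered 742 to 1324 with 1 library left out. Myelin genes with an unadjusted p under 0.05 numbered 9 in a fit of only the 12 libraries and 2 to 8 with 1 library left out (2 without library 38). For interferon genes that number was 0 with limma, 6 with only the 12 libraries and 1 with the choroid plexus covariate. With 1 library left out it was 1 to 4 (1 without library 10, 11 or 37). Of all genes, 1188 of 18584 were under that p with limma (593 higher) and 1150 of 17450 with only the 12 libraries (517 higher). With the covariate 979 of 18584 were (521 higher). Without libraries 10, 11, 37 and 38 they numbered 742 (360 higher), 830 (433 higher), 1130 (568 higher) and 909 (474 higher). Choroid plexus markers lower numbered 6 when 10 counts were required in every library, as fewer were tested. Among single genes, the log2 fold change with 1 library left out ran from -0.039 to 0.13 for Aif1 and from -0.060 to 0.013 for Gfap. It ran from 0.0039 to 0.091 for Nrf1 and from 0.0037 to 0.054 for Tfam. It turned sign for Tfam (-0.014) and Gfap (0.026) with GC and length offsets, Aif1 became -0.039 without library 40, and Gfap became 0.0044, 0.0082, 0.013 and 0.00082 without libraries 8, 11, 38 and 39; the causes were not tested. Of 40 list medians, 13 turned sign with some 1 library left out (dentate gyrus, CA1, CA3, striatum, neocortex, blood, cholesterol synthesis, lipoprotein transport, estrogen receptor, glycolysis, complex I, complexes III to V and circadian). No paired analysis was possible because replicate numbers are library numbers that the groups do not share. Genes at a few counts, such as H2ac20 in APOE3, are limited by depth.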

Other observations

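Genes that respond to handling and time of day were examined as well. Of 14 immediate early genes 13 were below 0 in APOE4 (median -0.088), library 38 was the highest of the 12 for 11 of them, and without it the median was -0.40. Library 40 was the lowest for 8 of the 14, and without it the median was -0.014. Arc, an activity-regulated synaptic gene, was at 64.35 to 204 CPM in APOE3 and at 79.7, 166, 284, 75.3 and 61.55 CPM in APOE4. Glucocorticoid-responsive genes had 8 of 12 above 0 (median 0.074, or 0.012 without library 39) and circadian genes 11 of 15 (median 0.025, or -0.0013 without library 11), none with an unadjusted p under 0.05. Heat shock genes had 12 of 15 above 0 (median 0.077, or 0.045 without library 37, which was the highest for 8), with Dnajb1, a cochaperone, at 0.13 (SE 0.06, unadjusted p = 0.0241). All 4 tested blood markers were above 0 (median 0.071), 2 of them highest in library 38, and without it the median was -0.0017.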
